A study of Mus musculus with 36 samples.

Results

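The cell cycle and proliferation genes comprised 39 genes of the 24421 measured in mouse liver, chosen by symbol: 2 proliferation markers, 4 genes of G1 entry, 11 of DNA replication, and 22 of G2 and mitosis. The genes were given as a list of symbols. All 39 were present in every count file and all passed the filter on low counts in each comparison. The livers came from male C57BL/6J mice fed a choline-deficient, amino acid-defined high-fat diet (CDAHFD), which induces steatohepatitis with fibrosis, for 12 weeks. In the HFD experiment, mice then received a high-fat diet for 2 weeks with weekly subcutaneous 4.3 mg/kg Fc (10 mice) or 5 mg/kg Fc(mML1)B3 (10 mice). In the standard diet experiment, mice received a standard diet for 10 days with the same 2 agents and doses at days 1, 4 and 7, given to 9 and 7 mice respectively. Fc is the crystallizable region of human IgG1, and Fc(mML1)B3 is that fragment with a Met-binding peptide grafted into its B3 loop, which makes it an agonist of Met, the receptor of hepatocyte growth factor. Every mouse in the 4 groups had therefore first received the CDAHFD, and no mouse kept on a normal diet throughout or sampled before treatment was analysed here.

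Hepatocyte growth factor is a classical mitogen of hepatocytes and rises after liver injury and partial hepatectomy. A cell enters the cycle when D-type cyclins and then E-type cyclins activate their kinases and release E2F factors, which switch on the genes that license and copy DNA. Genes of G2 and mitosis are then induced by Foxm1 and related factors and are repressed again in resting cells, so that their mRNAs mark dividing cells. The adult liver is largely quiescent, and in steatohepatitis the dividing cells may be hepatocytes, cholangiocytes, stellate cells or leukocytes. The comparisons asked whether the mRNAs of these genes differed between Fc(mML1)B3 and Fc under either diet.

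One library of whole liver RNA was sequenced per mouse, and the 36 libraries held between 14949035 and 28466853 counted reads (median 23558194.5). Hepatocyte transcripts dominated, with a summed level of the 9 hepatocyte markers between 83450 and 162500 CPM (counts scaled to library size) in every library. Libraries carried numbers in the file headers, by which they were grouped into series, and what these series stand for was not given in the sources used here. Under the HFD the Fc libraries carried numbers 1 to 10, and the Fc(mML1)B3 libraries 1 to 4 (mice 1 to 4) and 1 to 6 (mice 5 to 10). These numbers overlap and do not by themselves assign a library to a series. The Fc libraries were taken as 1 series and the Fc(mML1)B3 libraries as 2 others (mice 1 to 4 and 5 to 10). Under that grouping, series and treatment cannot be told apart. Under the standard diet, Fc mice 1 to 5 formed their own series, while Fc mice 6 to 9 shared a series with all 7 Fc(mML1)B3 mice. In whole tissue, fewer cells of a type and less RNA per cell cannot be told apart.

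Levels spanned a wide range. Per kilobase of transcript (RPKM, median over the 36 livers), the level was highest for Pcna, the sliding clamp of DNA polymerase (31.2), and Ccnd1, the cyclin of G1 entry (23.6). Mcm7, a subunit of the replicative helicase, and Rrm2, a subunit of ribonucleotide reductase, followed at 6.30 and 5.23 RPKM. The lowest levels belonged to Bub1, a checkpoint kinase (0.171), Cdc6, a licensing factor (0.164), Cenpe, a kinetochore motor (0.134), and Cenpf, a kinetochore protein (0.114). The depth behind these values differed accordingly. Ccnd1 had a median of 1982.5 reads per library and Bub1 had 16. Exons of 7 genes overlapped those of a neighbour, and the counting ignored strand. The shared part was 53.9% of the exonic length of Ccne2 (with Ints8), 34.4% of Kif20a (with Brd8 and Cdc23) and 13.4% of Ccna2 (with Exosc9), so that reads there cannot be assigned to one gene. In Nusap1, Cdc20, Foxm1 and Ccnd1 it was at most 7.03%.

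The promoters of replication and mitotic genes held different shares of 2 sequence motifs. Promoter windows from RefSeq (GRCm38.p6), 250 bases before to 50 bases after the annotated start, were available here for 31 of the 39 genes. The set of windows used held no entry for Ccnd1, Ccne2, Mcm4, Ccna2, Foxm1, Aurkb, Kif20a and Tpx2, which were not searched. The CHR element, through which cell cycle complexes repress mitotic genes in resting cells, was searched as TTTGAA or TTCGAA on both strands. It occurred in 13 of 17 promoters of G2 and mitosis genes (76.5%) and in 2 of 10 of replication genes (20.0%), against 17.1% of 15610 protein-coding promoters. The E2F site, searched as TTTCCCGC or TTTGGCGC on both strands, occurred in 6 of 10 replication promoters (60.0%) and in 0 of 17 of G2 and mitosis, against 2.19% of all. CCAAT, the site of NF-Y, was in 88.2% of the G2 and mitosis promoters, in 7 of 10 replication promoters (70.0%) and in 38.8% of all. These are letter matches that show neither binding nor a cause. Mki67, Cdc20 and Cenpf are shown because their mRNAs were among those called in the treatment comparisons and their windows hold both CHR and CCAAT letters. Mcm6, a helicase subunit, is shown for its E2F letters. The 4 windows are shown 5′ to 3′ on the minus strand from 170 bases before the start to base 30 of the transcript, with the matched letters in capitals. They lie at chr7:135716350-135716549 (Mki67), chr1:128359676-128359875 (Mcm6), chr4:118437314-118437513 (Cdc20) and chr1:189688057-189688256 (Cenpf).
Mki67: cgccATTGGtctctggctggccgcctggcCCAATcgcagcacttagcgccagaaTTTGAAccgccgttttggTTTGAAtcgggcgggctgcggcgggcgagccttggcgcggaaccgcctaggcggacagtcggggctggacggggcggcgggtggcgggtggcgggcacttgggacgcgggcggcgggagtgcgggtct
Mcm6: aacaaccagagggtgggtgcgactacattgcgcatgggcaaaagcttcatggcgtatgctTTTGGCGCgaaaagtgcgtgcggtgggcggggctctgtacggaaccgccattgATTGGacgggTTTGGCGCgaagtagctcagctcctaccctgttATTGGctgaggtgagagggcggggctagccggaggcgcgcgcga
Cdc20: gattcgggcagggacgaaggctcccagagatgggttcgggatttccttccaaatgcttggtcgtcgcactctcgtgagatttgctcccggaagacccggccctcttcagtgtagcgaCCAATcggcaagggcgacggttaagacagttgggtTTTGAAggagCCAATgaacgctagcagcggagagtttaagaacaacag
Cenpf: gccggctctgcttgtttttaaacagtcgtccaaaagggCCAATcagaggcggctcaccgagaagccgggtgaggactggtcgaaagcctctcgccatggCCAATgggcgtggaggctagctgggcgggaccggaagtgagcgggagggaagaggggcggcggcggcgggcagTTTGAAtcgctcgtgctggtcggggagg

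Under the HFD, mRNA of the G1 cyclins Ccnd1 and Ccne1 was lower with Fc(mML1)B3. These 2 of 39 genes (5.13%) were called lower and 0 higher at an adjusted p below 0.05 in edgeR's quasi-likelihood test, where 6.68% of all genes tested were called lower and 8.14% higher. The share of the set called lower was thus near that of all genes, and the share called higher was below it. At an unadjusted p below 0.05, 5 of 39 genes were lower and 0 higher, against 1935 and 2031 of the 13299 genes tested. DESeq2 also called 2 lower and 0 higher, and limma-voom 3 lower (with Cdt1) and 1 higher (Aurka). In all, 27 of 39 log2 fold changes were below 0, with a median of -0.15 and a range of -0.90 to 0.38, whereas 51.7% of all genes were below 0 with a median of -0.01. The median of the set depended on single mice: it was -0.07 without Fc mouse 10, -0.08 without Fc(mML1)B3 mouse 8 and -0.09 without Fc mouse 8. It was -0.02 with treated mice 1 to 4 alone and -0.25 with mice 5 to 10 alone. With the study's own limits, an adjusted p under 0.1 together with a 2-fold difference, edgeR called 0 of the set, against 0.677% of all genes lower and 0.662% higher.

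Ccnd1 encodes cyclin D1, the partner of Cdk4 and Cdk6 that growth factors induce. The gene lies at chr7:144929931-144939925 on the minus strand (mm10). Its level in the 10 Fc mice had a lowest value of 67.6, a median of 102 and a highest of 215 CPM. In the 10 Fc(mML1)B3 mice the same values were 50.6, 66.7 and 81.1 CPM. All 10 treated mice lay below the Fc median and 5 lay below every Fc mouse, although the groups overlapped. The log2 fold change was -0.72 ± 0.16 (SE), with an edgeR adjusted p of 0.00345. In a two-sided permutation test on log2 CPM the p was 0.00044 (0.0044 after Benjamini-Hochberg adjustment over 10 such tests). The call held in each of the 20 fits that left out 1 mouse, with log2 fold changes of -0.77 to -0.55. It held with each series of treated mice alone, at -0.85 for mice 1 to 4 (adjusted p = 0.045) and -0.62 for mice 5 to 10 (adjusted p = 0.0431). With mice 1 to 4, edgeR called 1 of the 39 genes lower and 0 higher, against 2.11% and 2.99% of all genes. With mice 5 to 10 it called 2 lower and 0 higher, against 5.26% and 7.32%. Fc mice 7 and 8 were high for many genes of the set, and without both the difference was -0.47 (adjusted p = 0.00575).

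Ccne1, cyclin E1, activates Cdk2 at the start of DNA synthesis. The Fc mice ranged from 0.903 to 4.47 CPM with a median of 2.42, and the Fc(mML1)B3 mice from 0.436 to 2.03 with a median of 1.15. All 10 treated mice were below the Fc median and 3 were below every Fc mouse. The log2 fold change was -0.90 ± 0.28 (SE, edgeR adjusted p = 0.0303). The call was lost without Fc mice 7 and 8 (-0.64, adjusted p = 0.118) and with treated mice 1 to 4 alone (-0.59, adjusted p = 0.276). It was also lost in 8 of the 20 fits that left out 1 mouse, namely Fc mouse 2, 7 or 8 or Fc(mML1)B3 mouse 4, 7, 8, 9 or 10, with values of -0.89 to -0.75 and adjusted p of 0.0504 to 0.066. The other genes of G1 entry, the second E cyclin Ccne2 and the transcription factor E2f1, had log2 fold changes of -0.20 ± 0.19 and -0.09 ± 0.13 (SE).

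The proliferation markers were lower on average without passing the test. Mki67, which encodes the Ki-67 protein found in cycling cells only, had a lowest, median and highest level of 4.38, 7.74 and 12.5 CPM in the Fc mice and of 3.14, 5.96 and 8.44 CPM in the Fc(mML1)B3 mice. 8 of the 10 treated mice were below the Fc median. The log2 fold change was -0.40 ± 0.19 (SE), with an unadjusted p of 0.0453 and an adjusted p of 0.158 in edgeR. Top2a, the topoisomerase that untangles replicated chromosomes, ranged from 2.45 to 9.54 CPM (median 6.21) in Fc mice and from 2.97 to 6.27 CPM (median 4.58) in treated mice, a log2 difference of -0.41 ± 0.21 (SE, edgeR adjusted p = 0.194). The permutation p was 0.0793 for Mki67 and 0.21 for Top2a, 0.136 and 0.24 after adjustment.

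Of the 11 replication genes, 8 had log2 fold changes below 0 (median -0.15), and edgeR called 0. Cdt1, which loads the helicase onto origins, came closest at -0.44 ± 0.18 (SE, adjusted p = 0.0978). Pcna spanned 39.5 to 56.8 CPM (median 46.0) in the Fc mice and 36.6 to 48.2 CPM (median 40.9) in the treated mice, at a log2 fold change of -0.15 ± 0.07 (SE, adjusted p = 0.165). Its permutation p was 0.0416, or 0.119 after adjustment. Both genes had an unadjusted edgeR p below 0.05, and no other replication gene did. limma-voom called 1 replication gene, Cdt1, and DESeq2 0.

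The 22 genes of G2 and mitosis centred near 0 under the HFD. Their log2 fold changes had a median of -0.06, with 13 below 0, and edgeR called 0 of them, with 0 also at an unadjusted p below 0.05. DESeq2 called 0 and limma-voom 1, Aurka. Cdk1, the kinase that drives mitosis, was at 2.34 to 8.11 CPM (median 4.58) in Fc mice and 2.59 to 8.15 CPM (median 4.79) in treated mice. Its log2 fold change was 0.00 ± 0.21 (SE), with a 95% interval of -0.41 to 0.41, and its permutation p was 0.982. The spread was alike in both groups, with an SD of 1.72 CPM in Fc mice and 1.70 CPM in treated mice. Birc5, the survivin subunit of the chromosomal passenger complex, Ccnb1, the mitotic partner of Cdk1, and Aurka, the centrosomal kinase, had the highest values at 0.38 ± 0.18, 0.35 ± 0.23 and 0.30 ± 0.16 (SE), with adjusted p of 0.168, 0.316 and 0.211. Birc5 had a median of 5.57 CPM in treated mice 1 to 4 and 3.48 CPM in mice 5 to 10, beside 3.45 CPM in Fc mice. In the same order Ccnb1 was at 3.51, 2.63 and 2.03 CPM and Aurka at 5.305, 4.83 and 3.94 CPM. Without Fc mice 7 and 8, Aurka was called higher and the median over the 39 genes was -0.03.

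**Figure D1:**
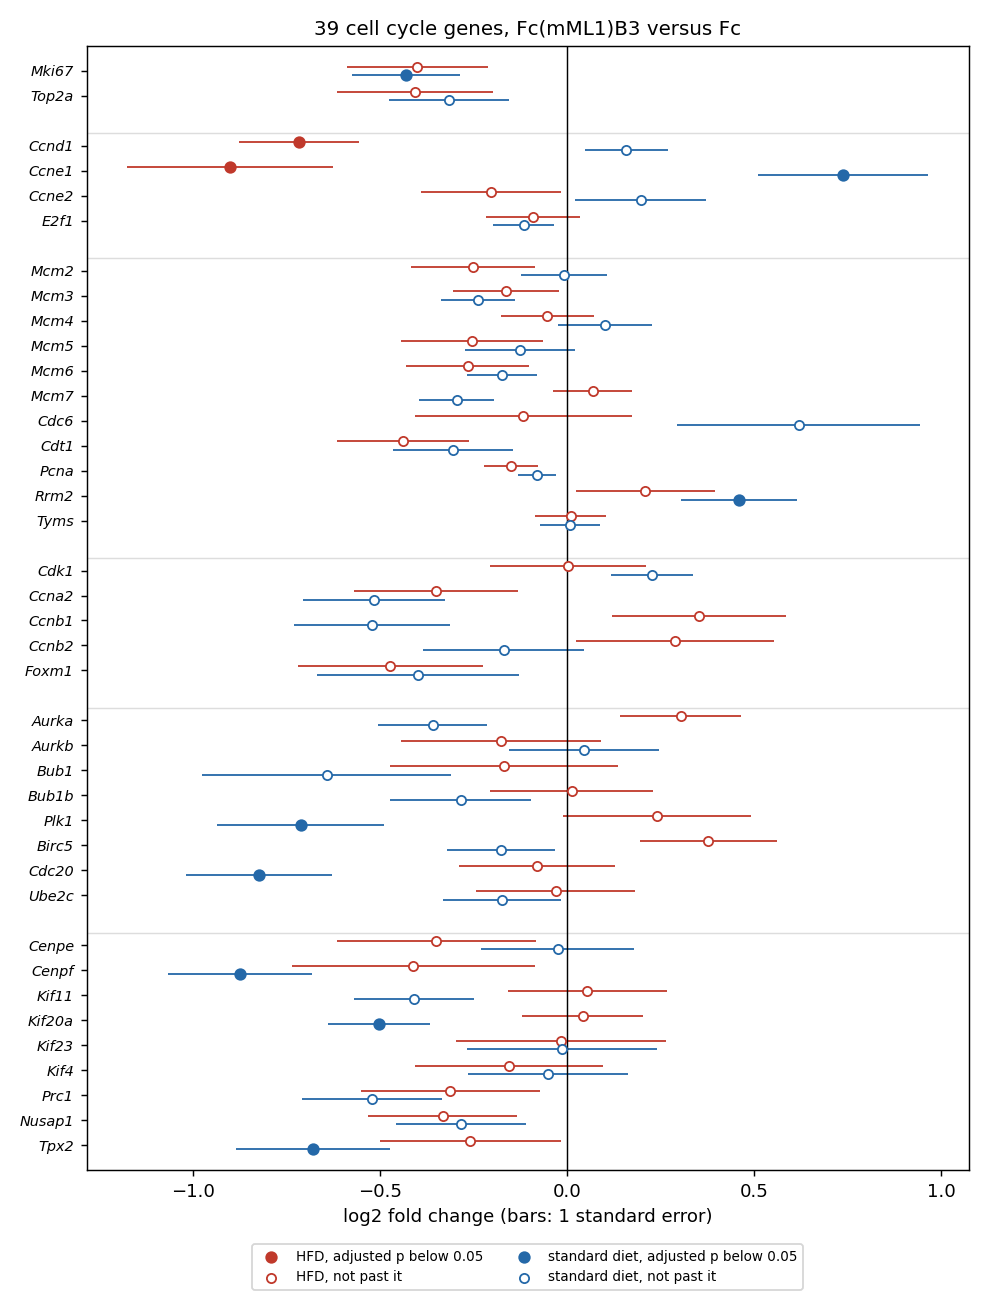
Log2 fold change of Fc(mML1)B3 over Fc for each of the 39 genes under the HFD and the standard diet, in blocks by role. Points are edgeR estimates, bars are 1 standard error to each side, and filled points passed an adjusted p below 0.05. Under the HFD the filled points are Ccnd1 and Ccne1, both below 0, and under the standard diet 6 lie below 0 and 2 above.

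Under the standard diet, 5 mitotic genes and the proliferation marker Mki67 were lower with Fc(mML1)B3. Cenpf, Cdc20, Kif20a, Tpx2, Plk1 and Mki67 were called lower, 6 of 39 (15.4%), and Ccne1 and Rrm2 higher, 2 of 39 (5.13%). Among all genes tested in edgeR, 7.55% were called lower and 8.56% higher, so that the share called higher was below that of all genes. The median over the 39 log2 fold changes was -0.18 (all genes -0.01), the range -0.87 to 0.74, and 30 of 39 were below 0. Without Fc mouse 9 the median was -0.28. At an unadjusted p below 0.05, 13 of 39 were lower and 2 higher, against 2007 and 1967 of the 13570 genes tested. DESeq2 called 9 lower and 2 higher. limma-voom called 6 lower and 2 higher, without Mki67 and Tpx2 and with Mcm7 and Prc1, and the fit with no filter on low counts lost Mki67. With one of the 2 sets of limits that the study states for this diet, an adjusted p under 0.05 together with a 1.5-fold difference, 4 genes were lower and 1 was higher, against 1.31% and 1.05% of all genes.

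This result rests in part on the Fc mice of the other header series. With Fc mice 6 to 9 and the 7 treated mice, which share a series, edgeR called 0 of the 39 in either direction, against 3.09% of all genes lower and 3.77% higher. At an unadjusted p below 0.05 there were 4 lower and 4 higher, 24 of 39 were below 0, and the median was -0.09. This fit had 4 Fc mice instead of 9, and the part of the series and of the smaller number in the lost calls was not tested. Values within the shared series are given beside those over all mice for the cell cycle genes described under this diet. They are not given for the cell type markers.

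Cenpf, a large kinetochore protein of late G2, had the lowest value of the set. The 9 Fc mice had a lowest, median and highest level of 1.42, 1.94 and 2.84 CPM, and the 7 treated mice of 0.717, 0.989 and 1.68 CPM. The log2 fold change was -0.87 ± 0.19 (SE, adjusted p = 0.00392), and -0.73 within the shared series (adjusted p = 0.0889). Cdc20, the activator of the anaphase-promoting complex, ranged from 2.64 to 6.17 CPM (median 4.78) in Fc mice and from 1.53 to 3.31 CPM (median 2.30) in treated mice. Its log2 fold change was -0.82 ± 0.19 (SE, adjusted p = 0.00663), and -0.62 within the series (adjusted p = 0.0986). Plk1, the kinase of mitotic entry, was at 1.09 to 2.58 CPM (median 1.49) and 0.497 to 1.41 CPM (median 0.953), a log2 fold change of -0.71 ± 0.22 (SE, adjusted p = 0.0342). Within the series it was -0.54 (adjusted p = 0.224). For each of the 3 genes, all 7 treated mice were below the Fc median and 5 were below every Fc mouse.

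Tpx2 and Kif20a act on the spindle, Tpx2 as the activator of Aurka and Kif20a as a kinesin of cytokinesis. Tpx2 was at 1.28 to 4.36 CPM (median 2.77) in Fc mice and 1.18 to 2.37 CPM (median 1.75) in treated mice. Its log2 fold change was -0.68 ± 0.20 (SE, adjusted p = 0.0285), and -0.30 within the shared series (adjusted p = 0.481), less than the value over all mice by more than 1.5 times. Kif20a was at 2.18 to 3.88 CPM (median 3.64) and 1.84 to 2.72 CPM (median 2.36), at -0.50 ± 0.14 (SE, adjusted p = 0.0164) and -0.42 within the series (adjusted p = 0.145). All 7 treated mice were below the Fc median for both genes, and 1 was below every Fc mouse. Mki67 was at 6.25 to 10.9 CPM (median 7.97) in Fc mice and 4.14 to 8.75 CPM (median 6.16) in treated mice. For Mki67, 6 of 7 treated mice were below the Fc median, 4 of them below every Fc mouse, and the log2 fold change was -0.43 ± 0.14 (SE, adjusted p = 0.0466). Its exact permutation p was 0.015, or 0.075 after adjustment over the 10 tests. Within the series, Mki67 was at -0.20 (adjusted p = 0.513). Fc mice 1 to 5 had a median of 10.3 CPM and Fc mice 6 to 9 of 7.49 CPM.

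Leaving out 1 mouse at a time separated calls that depended on single mice from those that did not. Cenpf, Cdc20 and Kif20a were called in all 16 fits. Each fit kept Fc mice of both header series, so it cannot show whether a call depends on the series. Tpx2 was lost without Fc mouse 4 or Fc(mML1)B3 mouse 1, 5 or 6, at -0.66 to -0.58. Plk1 was lost in 8 fits, without Fc mouse 3, 5 or 9 or treated mouse 1, 2, 4, 5 or 7, at -0.72 to -0.59. Mki67 was lost in 10, without Fc mouse 1, 2, 3, 5 or 8 or treated mouse 1, 2, 5, 6 or 7, at -0.44 to -0.35. The adjusted p in these fits was at most 0.0927. Without treated mouse 5, 3 genes in all were called lower.

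Most of the other mitotic genes also had values below 0. Of the 22 genes of G2 and mitosis, 20 had log2 fold changes below 0, the median was -0.38, and 5 were called lower, 10 at an unadjusted p below 0.05. All 9 genes of the kinetochore, spindle and cytokinesis were below 0 (median -0.41), as were 7 of 8 mitotic kinases, checkpoint and APC/C genes (median -0.32) and 4 of 5 among Cdk1, its cyclins and Foxm1 (median -0.40). Prc1, which bundles the central spindle, and Ccna2, the S and G2 cyclin, were at -0.52 ± 0.19 and -0.52 ± 0.19 (SE), with adjusted p of 0.0643 and 0.0703, and at -0.44 and -0.33 within the series. Within the shared series the median over the 22 was -0.14, with 15 below 0. Cdk1 was one of the 2 above 0: its level was 3.29 to 4.75 CPM (median 4.36) in Fc mice and 4.10 to 5.97 CPM (median 5.14) in treated mice, a log2 fold change of 0.23 ± 0.11 (SE, adjusted p = 0.177), and 0.32 within the series. The exact permutation p of Cdk1 was 0.0476, or 0.119 after adjustment. Its partners Ccnb1 and Ccnb2 were at -0.52 ± 0.21 and -0.17 ± 0.21 (SE), neither of them called, and at -0.12 and 0.07 within the series. These 22 genes share cells and regulators and are not independent replicates.

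Among the genes of G1 entry and replication, Ccne1 and Rrm2 were called higher and 0 lower, with 2 lower at an unadjusted p below 0.05 in edgeR and 1, Mcm7, called lower by DESeq2 and by limma-voom. Ccne1 was at 1.26 to 3.10 CPM (median 2.30) in Fc mice and 2.35 to 6.38 CPM (median 2.74) in treated mice, a log2 fold change of 0.74 ± 0.23 (SE, adjusted p = 0.0315), and 0.60 within the shared series (adjusted p = 0.176). All 7 treated mice were above the Fc median and 3 were above every Fc mouse. Ccnd1 was at 74.6 to 128 CPM (median 93.2) and 86.6 to 138.9 CPM (median 114), a log2 difference of 0.16 ± 0.11 (SE, adjusted p = 0.366, exact permutation p = 0.216), and 0.05 within the series. Rrm2, which makes deoxyribonucleotides, was at 6.83 to 12.4 CPM (median 9.37) in Fc mice and 6.79 to 16.8 CPM (median 12.3) in treated mice. It was higher by 0.46 ± 0.15 (SE, adjusted p = 0.0483), and by 0.55 within the series (adjusted p = 0.121). With 1 mouse left out, Ccne1 was lost in 6 of 16 fits, without Fc mouse 1, 2 or 3 or treated mouse 1, 2 or 3, at 0.54 to 0.70. Rrm2 was lost in 13, all but those without Fc mouse 4 or 5 or treated mouse 1, at 0.39 to 0.49.

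Of the 11 replication genes, 7 were below 0 (median -0.08), and Rrm2 was the 1 called. Pcna ranged from 31.02 to 40.6 CPM (median 37.7) in Fc mice and from 32.6 to 37.0 CPM (median 35.5) in treated mice, a log2 fold change of -0.08 ± 0.05 (SE, adjusted p = 0.302, exact permutation p = 0.133), and -0.09 within the series. Mcm7 was at -0.29 ± 0.10 (SE, adjusted p = 0.0503), just short of the threshold, and at -0.27 within the series. Cdc6 was at 0.62 ± 0.32 (SE, adjusted p = 0.211), and at 1.14 within the series (adjusted p = 0.106), where the Fc mice had a median of 0.408 CPM against 0.882 in Fc mice 1 to 5 and 1.05 in treated mice. Top2a, which peaks in G2, was at 4.94 to 8.52 CPM (median 5.40) and 3.11 to 6.78 CPM (median 5.04), at -0.31 ± 0.16 (SE, adjusted p = 0.200, exact permutation p = 0.0818), and -0.14 within the series. Mcm3, Mcm4, Kif11, Bub1b, Kif23 and Kif4 were called in neither diet. Mcm3 and Mcm4, of the replicative helicase, were at -0.16 ± 0.14 and -0.05 ± 0.12 (SE) under the HFD and at -0.24 ± 0.10 and 0.10 ± 0.13 under the standard diet. Kif11, the motor that separates spindle poles, was at 0.05 ± 0.21 in HFD-fed mice and -0.41 ± 0.16 in mice on the standard diet, and the checkpoint kinase Bub1b at 0.01 ± 0.22 and -0.28 ± 0.19 (SE) in the same order. Within the series of the standard diet, Kif11 was at -0.21 and Bub1b at -0.16, and Mcm3 and Mcm4 were at -0.16 and 0.24, each moved by more than 1.5 times from the value over all mice. Kif23 and Kif4, motors of the central spindle, were at -0.02 ± 0.28 and -0.15 ± 0.25 under the HFD, and at -0.01 ± 0.25 and -0.05 ± 0.21 under the standard diet. Both were above 0 within the series, Kif23 at 0.40 (adjusted p = 0.486) and Kif4 at 0.04.

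In neither diet did the treated and Fc mice of any of the 39 genes separate without overlap. Among all genes, 0.376% lower and 0.587% higher did so under the HFD, and 1.14% and 1.76% under the standard diet.

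**Figure D2:**
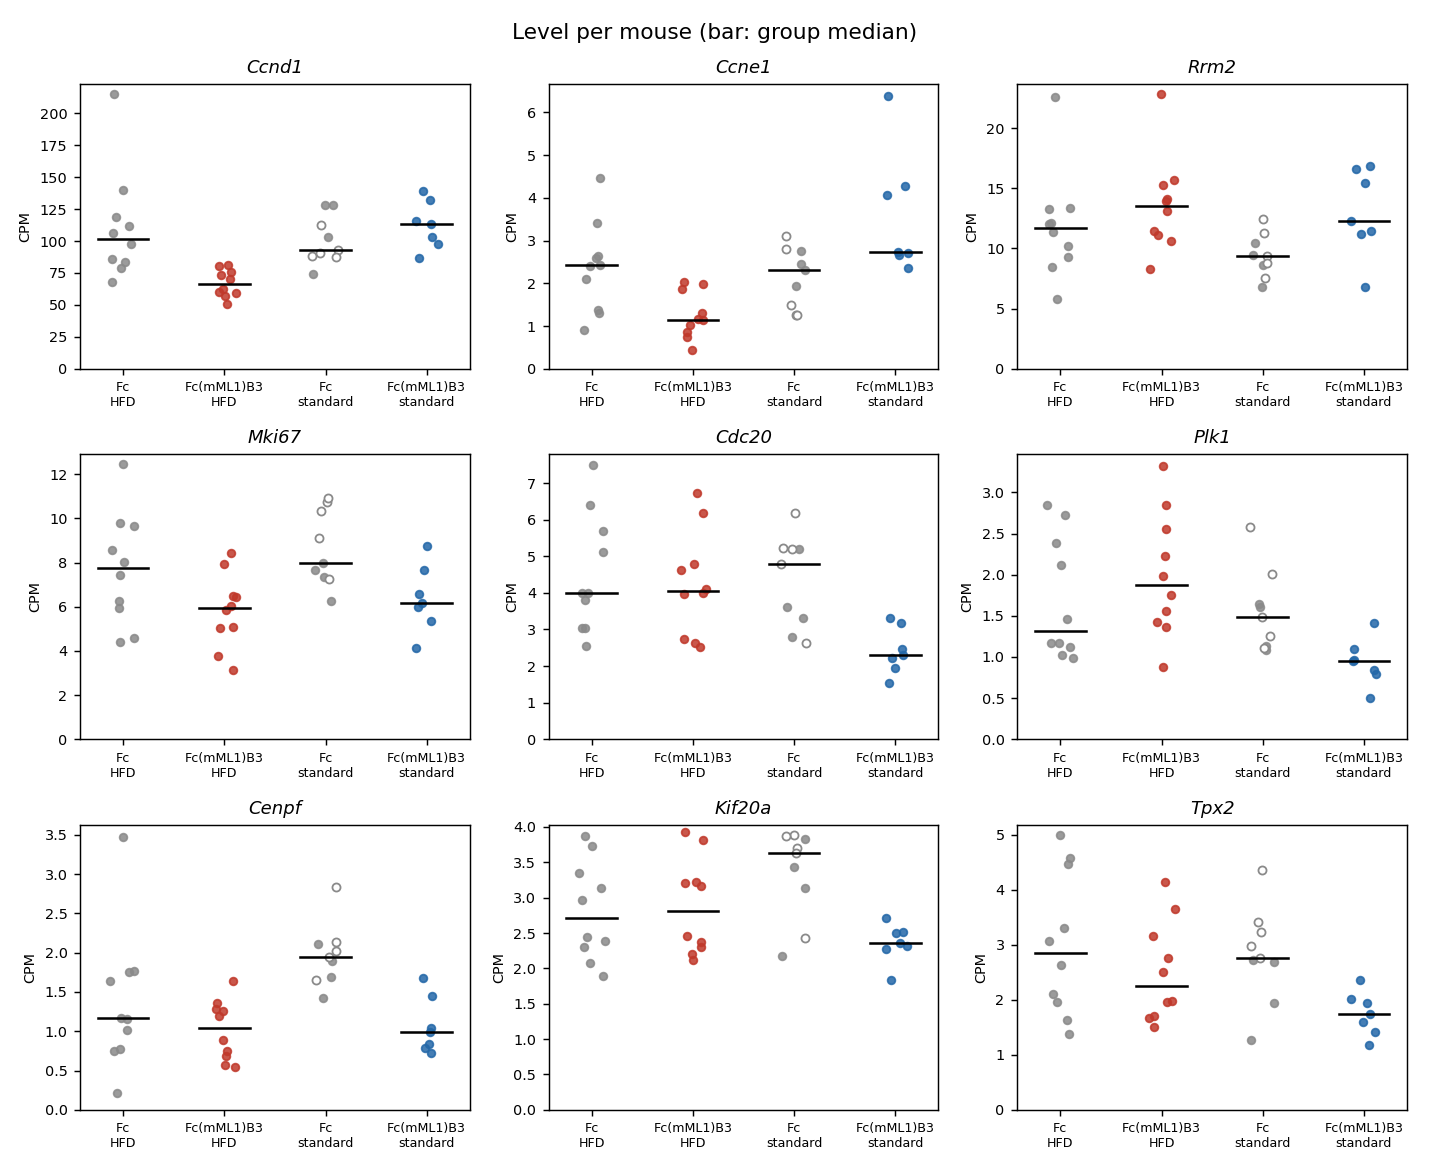
Level (CPM) of Ccnd1, Ccne1, Rrm2, Mki67, Cdc20, Plk1, Cenpf, Kif20a and Tpx2, the genes called within a diet, in each mouse, by treatment and diet. Each circle is 1 mouse, open circles are Fc mice 1 to 5 of the standard diet, whose libraries form their own series, and bars are group medians. Ccnd1 of the treated mice stays at or below 81.1 CPM under the HFD and reaches 138.9 CPM under the standard diet, and treated and Fc mice of a diet overlap for every gene.

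The effect of Fc(mML1)B3 on Ccne1 and Ccnd1 differed between the experiments. In a fit of the 4 groups, the difference between the effect under the standard diet and the effect under the HFD was 1.65 ± 0.37 (SE, log2) for Ccne1 (adjusted p = 0.00271) and 0.89 ± 0.22 for Ccnd1 (adjusted p = 0.00528). These were 2 of 39 genes called with a more positive effect under the standard diet (5.13%), beside 4.66% of all genes, so that the share was near that of all genes. For the second E cyclin, Ccne2, the difference was 0.42 ± 0.25 (SE, adjusted p = 0.372). Against 4.4% of all genes, 0 were called with a more negative effect by edgeR, 1 by DESeq2 (Aurka) and 2 by limma-voom (Aurka and Plk1). At an unadjusted p below 0.05 in edgeR, 7 of 39 had a more negative and 2 a more positive effect. Of the 14105 genes tested, 1370 and 1587 did so. The 22 genes of G2 and mitosis had a median difference of -0.34, with 15 below 0 and 6 at an unadjusted p below 0.05. The nearest were Aurka at -0.65 ± 0.23, Plk1 at -0.94 ± 0.35 and Ccnb1 at -0.86 ± 0.33 (SE), with adjusted p of 0.0664, 0.0944 and 0.0971. With edgeR and DESeq2, the mitotic decreases called under the standard diet were thus not shown to differ from the values under the HFD. With limma-voom that of Plk1 was. For Mki67 the difference was -0.01 ± 0.26 (SE), with a 95% interval of -0.52 to 0.49. Diet, dosing schedule, duration and header series all change between the experiments and cannot be told apart.

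**Figure D3:**
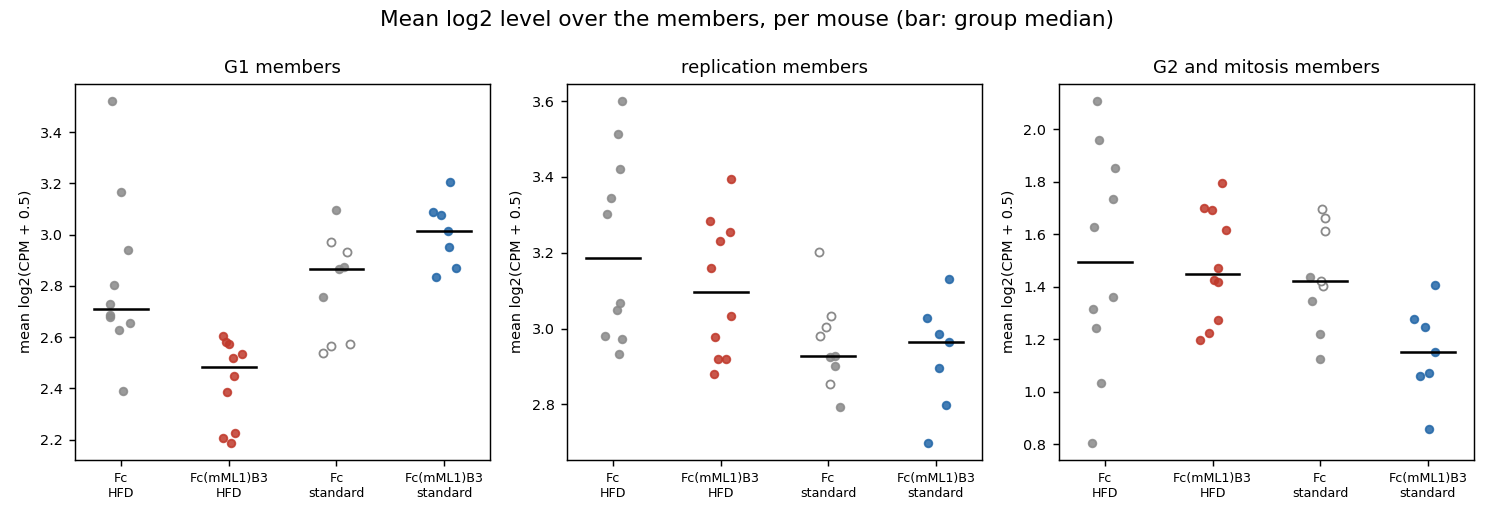
Mean log2(CPM + 0.5) over the G1 genes (left), the replication genes (centre) and the G2 and mitosis genes (right) in each mouse, by group. Circles are mice, bars are medians, and open circles are Fc mice 1 to 5 of the standard diet. The G1 mean is lowest in the treated mice of the HFD, and the G2 and mitosis mean in the treated mice of the standard diet.

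Mice differed most among themselves in the Fc group of the HFD. The mean log2(CPM + 0.5) over the 22 genes of G2 and mitosis was 1.504 ± 0.421 (SD, n = 10) there and 1.48 ± 0.213 (SD, n = 10) with Fc(mML1)B3. With the standard diet it was 1.44 ± 0.195 (SD, n = 9) with Fc and 1.15 ± 0.178 (SD, n = 7) with Fc(mML1)B3. For the G1 genes, the mean was 2.82 ± 0.320 and 2.43 ± 0.165 under the HFD, and 2.80 ± 0.200 and 3.01 ± 0.1301 under the standard diet. In the Fc mice of the HFD, mouse 7 was the highest of its group for 18 of the 39 genes and mouse 8 for 11, while mouse 3 was the lowest for 17 and mouse 4 for 10. With Fc(mML1)B3 under the standard diet, mouse 1 was the lowest for 18 and mouse 7 the highest for 15. The same mice were thus high or low for many of the genes, which are not separate observations of a mouse.

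Between the diets, the genes called lower on the standard diet were mostly replication genes in the Fc mice and mostly mitotic genes in the Fc(mML1)B3 mice. By direction, 10 of 11 replication and 17 of 22 G2 and mitosis genes (median -0.13) were below 0 in the Fc mice. In the Fc(mML1)B3 mice 11 (median -0.18) and 18 were. The interaction test of edgeR called 0 genes of these 2 sets. In the Fc mice, 8 of 39 genes were lower on the standard diet (20.5%) and 1 higher (2.56%), against 24.6% and 23.3% of all genes, so that the set was called no more often than other genes. Of the 8, 6 were among the 11 replication genes, whose median was -0.35 (set -0.15, all genes -0.05). Pcna differed by -0.35 ± 0.06, Tyms, the thymidylate synthase, by -0.38 ± 0.08 and Mcm2, a helicase subunit, by -0.54 ± 0.15 (SE), with adjusted p of 1.91e-05, 0.000326 and 0.00353. Mcm5, Mcm6 and Cdc6 were also lower, at -0.47, -0.44 and -0.76, and the call of Cdc6 was lost with limma-voom and with a filter at 0.5 CPM (adjusted p = 0.103 and 0.0505). The other 2 were Ube2c, the ubiquitin-conjugating enzyme of the APC/C, at -0.84 ± 0.19 (adjusted p = 0.000479), and Aurkb, the kinase of the passenger complex, at -0.75 ± 0.25 (adjusted p = 0.0120). E2f1 was higher by 0.25 ± 0.10 (SE, adjusted p = 0.0424), a call lost under upper-quartile scaling.

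In the Fc(mML1)B3 mice, 10 of 39 genes were lower on the standard diet (25.6%) and 2 higher (5.13%), against 17.9% and 20.7% of all genes. Here 8 of the 10 were among the 22 genes of G2 and mitosis, whose median was -0.45, and 2 were the replication genes Pcna and Tyms. Plk1 differed by -1.08 ± 0.26, Ube2c by -0.96 ± 0.21 and Aurka by -0.75 ± 0.17 (SE), with adjusted p of 0.00137, 0.000339 and 0.000449. Birc5, Cdc20, Ccnb1, Ccnb2 and Ccna2 differed by -0.69, -0.80, -0.74, -0.82 and -0.60, and the calls of Ccna2 and Ccnb2 were lost with limma-voom. Some HFD levels differed between treated mice 1 to 4 and 5 to 10. Ccnb2 had medians of 5.72 and 2.69 CPM there, beside 2.12 CPM on the standard diet. For Birc5 these were 5.57, 3.48 and 2.55 CPM, and for Tyms 13.96, 10.08 and 8.73 CPM. Plk1 was alike in both sets of mice, at 1.87 and 1.89 CPM, beside 0.953 CPM. Ccne1 was higher by 1.52 ± 0.27 (SE, adjusted p = 2.99e-05) and Ccnd1 by 0.75 ± 0.16 (SE, adjusted p = 0.000245). In the Fc mice the same 2 genes differed by -0.14 ± 0.25 and -0.15 ± 0.15 (SE). Each group enters both its treatment comparison and its diet comparison, so these values are not independent of those within a diet. The diets are confounded with dosing, duration and series.

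**Figure D4:**
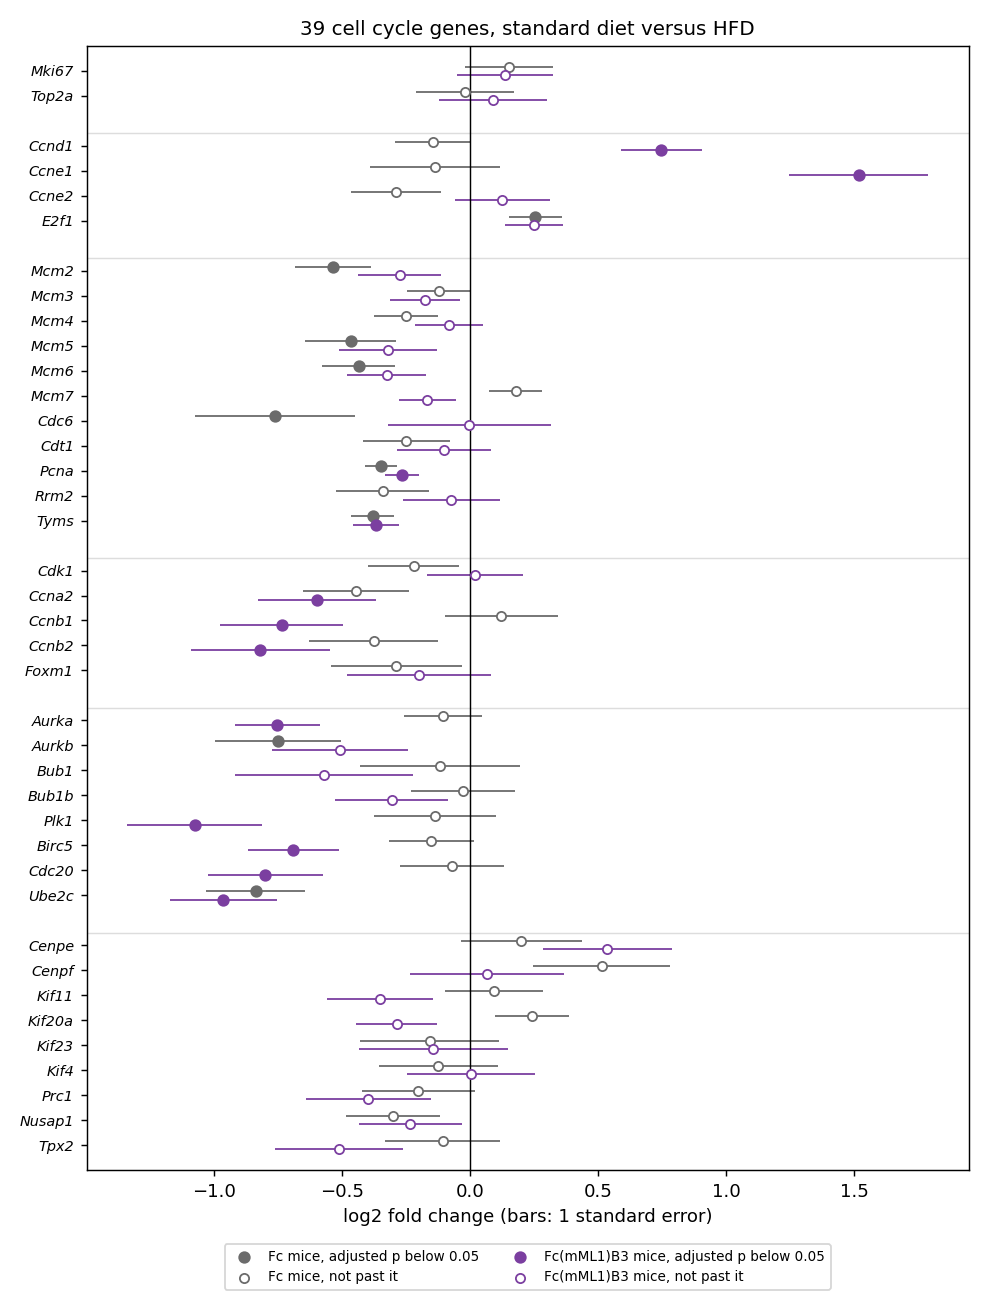
Log2 fold change of the standard diet over the HFD for each of the 39 genes in the Fc mice (grey) and in the Fc(mML1)B3 mice (purple), in blocks by role. Points are edgeR estimates, bars are 1 standard error to each side, and filled points passed an adjusted p below 0.05. Ccne1 and Ccnd1 lie above 0 in the Fc(mML1)B3 mice, at 1.52 and 0.75.

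Among 127 other cell cycle genes in 4 lists, several brakes of the cycle changed in opposite directions under the 2 diets. Of the genes tested, 11 of 119 were lower (9.24%) and 4 higher (3.36%) under the HFD, and 10 of 121 lower (8.26%) and 4 higher (3.31%) under the standard diet. Over all genes, 6.68% and 7.55% were called lower and 8.14% and 8.56% higher. Of the CDK inhibitors and brakes, 3 of 16 were lower and 2 higher under the HFD, and 4 lower and 1 higher under the standard diet. Of the other DNA replication genes, 5 of 38 were lower and 0 higher under the HFD, and 0 lower and 2 higher under the standard diet, where both counts of 0 were also 0 at an unadjusted p below 0.05 in edgeR. Of the other mitotic genes, 3 of 54 were lower and 2 higher under the HFD, and 6 of 55 lower and 1 higher under the standard diet, with medians of -0.17 and -0.23. Of the other G1 regulators, 11 and 12 tested, edgeR called 0 in either direction, with 1 lower under the HFD and 2 lower and 1 higher under the standard diet at an unadjusted p below 0.05.

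Wee1, the kinase that holds Cdk1 inactive and a known output of the circadian clock, had medians of 26.8 CPM in Fc mice and 16.4 CPM in treated mice under the HFD. On the standard diet they were 13.1 and 29.5 CPM, and no treated mouse (23.97 to 31.4 CPM) overlapped an Fc mouse (8.99 to 23.0 CPM). Its log2 fold changes were -0.68 ± 0.10 and 0.94 ± 0.15 (SE), adjusted p 6.4e-05 and 0.00032. Cdkn1a, the CDK inhibitor p21, went the other way. Its medians were 5.67 and 20.3 CPM under the HFD (1.82 ± 0.31, adjusted p = 0.00026), and 8.97 and 5.88 CPM under the standard diet (-0.58 ± 0.17, adjusted p = 0.029). Ccng2, a cyclin of quiescent cells, followed Cdkn1a at 0.56 ± 0.14 and -0.52 ± 0.10 (SE, adjusted p = 0.0094 and 0.00099). Gmnn, geminin, which blocks Cdt1 and relicensing, followed Wee1. It had medians of 11.1 and 7.12 CPM under the HFD (-0.60 ± 0.12, adjusted p = 0.0011) and 6.39 and 9.32 CPM under the standard diet (0.56 ± 0.09, adjusted p = 0.00026). The treated and Fc mice of the standard diet did not overlap for Gmnn. Within the shared series of the standard diet, Wee1, Gmnn and Ccng2 were at 0.66, 0.43 and -0.51 (adjusted p = 0.00605, 0.0119 and 0.0132), and Cdkn1a at -0.34 (adjusted p = 0.339).

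Other genes of these lists were called under 1 of the diets. Under the HFD, Gadd45a, a stress-induced growth arrest gene, fell by 0.90 on the log2 scale (SE 0.15, adjusted p = 0.00022), Rfc3, a clamp loader subunit, by 0.59 (SE 0.12, adjusted p = 0.0019) and Lig1, the ligase of Okazaki fragments, by 0.62 (SE 0.16, adjusted p = 0.012). Cks2, a Cdk1 subunit, was higher by 0.43 ± 0.10 (SE, adjusted p = 0.0061). Under the standard diet, Tk1, thymidine kinase, was higher by 0.73 ± 0.08 (SE, adjusted p = 2.9e-06), with 16.8 to 22.5 CPM in Fc mice and 27.1 to 38.9 CPM in treated mice, and Spc24, a kinetochore protein, by 0.60 ± 0.12 (SE, adjusted p = 0.0016). Nek2, a centrosomal kinase, and Hmmr, a spindle protein, were at -0.54 ± 0.11 and -0.79 ± 0.20 (SE, adjusted p = 0.002 and 0.0096). Ccng1, a p53 target, was at -0.19 ± 0.04 (SE, adjusted p = 0.0017). Within the shared series Tk1, Spc24, Nek2 and Ccng1 passed the threshold as well (adjusted p = 0.000618, 0.0228, 0.0371 and 0.0331), while Hmmr was at -0.73 (adjusted p = 0.108). Under the HFD, Ncapg2, of the condensin II complex, was at -0.52 ± 0.14 and Bub3, of the checkpoint, at 0.21 ± 0.06 (SE, adjusted p = 0.012 and 0.018).

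**Figure D5:**
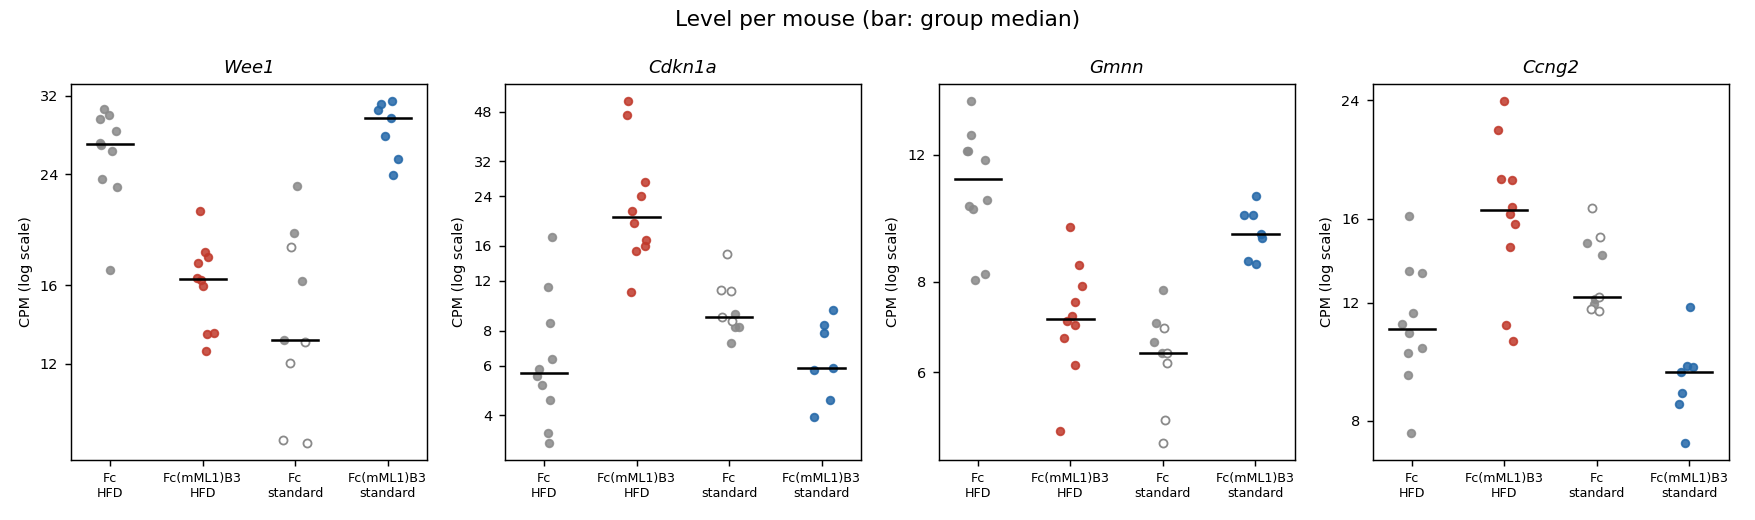
Level (CPM, log scale) of Wee1, Cdkn1a, Gmnn and Ccng2 in each mouse, by treatment and diet. Circles are mice, bars are medians, and open circles are Fc mice 1 to 5 of the standard diet. Wee1 and Gmnn are lower with Fc(mML1)B3 under the HFD and higher under the standard diet, and Cdkn1a and Ccng2 show the reverse order.

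Markers of the cell types that could hold dividing cells also differed between the groups. Under the HFD, 4 of 6 B and plasma cell markers (Mzb1, Jchain, Ms4a1 and Cd79b) were lower with Fc(mML1)B3, and their summed level was 11.53 to 37.8 CPM in Fc mice and 8.76 to 17.8 CPM in treated mice. Of 7 monocyte and neutrophil markers tested 3 were lower (summed level 22.6 to 89.0 and 17.9 to 39.3 CPM), and of the erythroid markers Klf1. Of the 12 macrophage and Kupffer cell markers 0 were called and 7 had an unadjusted p below 0.05 (1160 to 2476 and 1091 to 2247 CPM). Of the stellate cell and myofibroblast (10), T and NK cell (8), cholangiocyte (6) and sinusoidal endothelial (7) markers edgeR called 0, with 1, 3, 1 and 0 lower at an unadjusted p below 0.05. At that p 1 endothelial marker was higher, and all 7 were above 0. The hepatocyte marker Hnf4a was higher.

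Under the standard diet, where 5 of the 22 genes of G2 and mitosis were called lower, all 10 stellate cell and myofibroblast markers had log2 fold changes below 0. Pdgfrb and Des were called, and the summed level was 701.7 to 1060 CPM in Fc mice and 590.2 to 790.0 CPM in treated mice. All 6 cholangiocyte markers were below 0 and Sox9 was called. Their summed level was 227.5 to 498.4 CPM in Fc mice and 178.6 to 408.7 CPM in treated mice. The median of that sum was higher in treated mice, at 347.9 CPM against 322.0 CPM in Fc mice. Of the 12 macrophage and Kupffer cell markers, 9 were below 0 and Gpnmb was called lower (869.7 to 1495 and 880.4 to 1244 CPM). Of the hepatocyte markers, Fgb was lower and Cyp2e1 and Cps1 higher, and of the endothelial ones Fcgr2b was higher. Of the monocyte and neutrophil, T and NK, B and plasma and erythroid markers edgeR called 0, with 3 B and plasma cell markers higher and no other at an unadjusted p below 0.05. All 7 monocyte and neutrophil markers tested were below 0, as were 4 of 8 T and NK and 1 of 6 B and plasma cell markers. For the hepatocyte and endothelial markers this held for 4 of 9 and 3 of 7. Hba-a1 and Hbb-bs were listed at 0 in every library. The part of these cell types in the levels of the cell cycle genes was not tested.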

How the data were processed

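Whole liver RNA of 36 mice was sequenced as paired reads from stranded libraries on a DNBSEQ-G400. Per the labels and the methods, the authors trimmed reads with fastp, removed ribosomal reads with Bowtie2 (2.4.5), aligned to mm10 with STAR (2.7.10a) and counted with featureCounts (Subread 2.0.3). The deposited values are raw counts per gene, in which each end counted as a read, strand was ignored and reads with several alignments were left out. Totals were 14949035 to 28466853 per library. Replicates are separate mice.

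The counts were scaled by TMM, filtered with filterByExpr and tested gene by gene with edgeR's quasi-likelihood F-test (edgeR 4.0.16, R 4.3.3), with Benjamini-Hochberg adjustment over all genes. Genes with an adjusted p below 0.05 were called, with no fold limit. Each diet was fitted by itself. The diet and interaction contrasts came from 1 fit of all 36 libraries. SE was obtained as the size of a log2 fold change over the root of its F statistic. Single genes were also tested by two-sided permutation of log2 CPM (scipy 1.17.1, exact for 9 against 7 and 100000 resamples for 10 against 10). CPM and RPKM used TMM over all libraries. Alternatives were DESeq2 (1.42.0), limma-voom with quality weights (limma 3.58.1), upper-quartile and RLE scaling, other filters on low counts (0.5 CPM in at least 1 library, or none), a replicate block, header series and leaving out mice. The scripts were tested on simulated data.

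The members and gene lists were chosen with earlier results of these data known. All 39 members are named. Per-group values are given for Mki67, Top2a, Ccnd1, Cdk1, Pcna and each member called within a diet, and of each other list the counts and up to 3 called genes of smallest p per diet. Other genes named for their values were chosen after these were seen. The marker lists are those named in the report. Counting precision is limited by depth, and p-values cover the spread between mice. Promoter windows came from RefSeq (GRCm38.p6), and 29 of 31 start within 100 bases of the gene start in the files.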

Additional observations from a re-analysis of the deposited data

Results flagged for a closer look

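The effects of Fc(mML1)B3 on 9 of the genes named in the report differed between the 2 experiments by the interaction test of edgeR at an adjusted p below 0.05. The differences (effect under the standard diet minus effect under the HFD, log2) were 1.65 for Ccne1 and 0.89 for Ccnd1 among the 39 cell cycle genes. Among the 15 other cell cycle genes named in the report, which were named because they were called within a diet, they were 1.64 for Wee1, 1.18 for Gmnn, 1.15 for Gadd45a, 0.63 for Spc24 and 0.48 for Rfc3, and -2.38 for Cdkn1a and -1.06 for Ccng2. Of all 126 other cell cycle genes tested, 10 were called with a more positive effect under the standard diet (7.94%) and 2 with a more negative one (1.59%), against 4.66% and 4.4% of all genes, and the 5 not listed above were Cdkn2c, Pttg1, Pola1, Orc6 and Gtse1. Diet, dosing, duration and header series cannot be told apart in this test. Of 48 sets of mice examined for a mouse far from its group (12 genes in 4 groups), 0 held one by Dixon's criterion, which chance meets in about 1 of 20.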

How the results depend on the processing

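Under the HFD, Ccnd1 passed the threshold under every alternative run. The 2 members called lower became 1 with the replicate block, 1 with Fc(mML1)B3 libraries 1 to 4 only and 1 without Fc mice 7 and 8 (chosen after seeing the data), with Ccne1 lost each time, and 1 to 3 with 1 mouse left out. The 0 members called higher became 1 with limma-voom, 1 without Fc mice 7 and 8 (Aurka), and 0 to 1 with 1 mouse left out. Under the standard diet, the 6 called lower lost Mki67 and Plk1 with the block and became 0 within the shared header series and 3 to 7 with 1 mouse left out. The 2 called higher became 1 with upper-quartile scaling, 0 with the block, 0 within the series and 0 to 2 with 1 mouse left out. Between diets, the 1 member called higher in Fc mice became 2 with limma-voom and 0 with upper-quartile scaling, and the 2 in Fc(mML1)B3 mice became 4 with limma-voom. For the interaction, the 0 called lower became 1 with DESeq2 and 2 with limma-voom. The causes were not tested, and no member called in the reported fits changed direction.

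Replicate numbers were treated as unpaired. Correlations of same-numbered deviations were -0.665 to 0.314 under the HFD (2 of 10 above 0.1) and -0.174 to -0.0186 under the standard diet (0 of 7 above 0.1), and 0 samples correlated best with their own number under the HFD. Over all genes, the block gave 563 lower under the HFD (889 without it) and 588 lower and 714 higher under the standard diet (1024 and 1162). limma-voom gave 1396 lower and 1643 higher (1083) under the HFD, and 1011 and 1015 for the interaction (621 and 657). Libraries 1 to 4 gave 292 and 413, the shared series 424 and 518, the HFD without Fc(mML1)B3 mouse 5 1446 lower, and upper-quartile scaling 3799 lower for diet in Fc(mML1)B3 mice (2520). Depth limits the rarest mitotic genes, such as Bub1 with a median of 16 reads.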
